A study of Mus musculus with 9 samples.

Results

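Bone morphogenetic protein (BMP) ligands and the inhibitor of differentiation (ID) factors were followed across the layers of the mouse piriform cortex. The 10 genes were Id1, Id2, Id3 and Id4, the ligand genes Bmp4, Bmp5, Bmp6 and Bmp7, and the inhibitory SMAD genes Smad6 and Smad7. They were listed by name, with earlier results of these data known. Each gene was represented by its annotated transcript with the highest mean count over the 9 libraries. All 10 were found and all 10 passed the filter on low counts, among 56416 transcripts tested of 95533 in the files. Differences are given as log2 fold changes, positive where layer A was higher, with p-values from edgeR's quasi-likelihood test adjusted by Benjamini-Hochberg over all transcripts tested and called under 0.05. The filter asked for 10 counts in 3 libraries, and Bmp5, Bmp6 and Smad6 would not have met it without their layer A libraries, so counts that include them are descriptions. With no filter, Bmp5 and Bmp6 still passed the test against both other layers and Smad6 against layer B.

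The piriform cortex is the main cortical target of the olfactory bulb and has 3 layers. The study collected each layer from fresh-frozen sections by laser capture, a method that excises a drawn area with a laser, and sequenced its RNA to find genes that mark a layer. Layers A, B and C have 3 libraries each (A1 to A3, B1 to B3, C1 to C3), all from wild type C57BL/6 mice with no treatment listed, labelled as 8 weeks old, while the study's methods give an older age. The labels give no key from the letters to the numbered layers and do not say how many mice gave a library or whether the libraries of a layer came from separate animals, so p-values measure the spread between these libraries, which may be technical.

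BMP ligands are secreted proteins that bind paired type I and type II receptor kinases. The receptors phosphorylate Smad1, Smad5 and Smad9, which enter the nucleus with Smad4 and switch on target genes, and the Id genes are among the most direct of these. ID proteins carry a helix-loop-helix domain without the basic stretch that contacts DNA, so they pair with E proteins and keep them off their sites. Smad6 and Smad7 are themselves induced by the pathway and inhibit it. In the brain, BMP signalling is known for roles in astrocyte formation, in the meninges and in blood vessels.

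The helix-loop-helix domain is where the Id genes resemble each other most, so the coding sequences across it are shown to make clear that reads from the 4 genes can be told apart. Each is the same 90-base stretch read in frame, from the transcripts of the GRCm38 annotation, with capitals marking the 52 bases identical in all 4 genes.
Id1: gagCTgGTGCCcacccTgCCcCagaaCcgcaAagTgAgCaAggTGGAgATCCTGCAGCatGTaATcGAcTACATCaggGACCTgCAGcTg
Id2: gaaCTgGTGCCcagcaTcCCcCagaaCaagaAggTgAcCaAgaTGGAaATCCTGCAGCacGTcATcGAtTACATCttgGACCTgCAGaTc
Id3: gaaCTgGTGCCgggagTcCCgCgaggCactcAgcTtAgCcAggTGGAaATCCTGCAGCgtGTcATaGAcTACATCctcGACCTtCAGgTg
Id4: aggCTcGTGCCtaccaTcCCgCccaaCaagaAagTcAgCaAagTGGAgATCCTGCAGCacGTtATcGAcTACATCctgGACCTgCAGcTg
Within this stretch Id1 matched Id2 and Id4 at 80.0% of bases each, and Id3 matched Id1 and Id4 least, at 67.8% each. The longest exact run shared by any pair of the whole transcripts was 19 bases, between Id2 and Id3, which is shorter than the 50-base reads. Of all 50-base words in the transcript, none in Id1 or Id3, 0.655% in Id2 and 2.08% in Id4 also occurred in a transcript of another gene. Among the ligand genes, Bmp7 shared 0.0276% of its words and Bmp4 2.48%. In Bmp5, 48.5% of the words also occurred elsewhere, mostly in Gm26903, an annotated gene on the opposite strand that overlaps it by 1878 bases. In Bmp6, 4.94% did, through 224 bases shared with Txndc5 on the opposite strand. The libraries did not keep strand, so reads in these overlaps cannot be told apart. Gm26903 was not analysed here. Txndc5 gave log2 fold changes of -0.06 between layers A and B (adjusted p = 0.941) and 0.48 between layers A and C (adjusted p = 0.5).

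Total counts ranged from 23104306 to 76471683 per library, and 3 counts, taken as the floor for detection, were worth 0.0256 to 0.254 normalized CPM, counts relative to the total of a library. Totals were scaled between libraries by the trimmed mean of M-values (TMM), with factors of 0.467 to 1.63. The 2 mitochondrial ribosomal RNAs took 55.3% to 70.2% of counts across the layer A libraries, 12.8% to 28.1% across those of B and 20.5% to 57.1% across those of C. Library B3 stood apart from the others of its layer, with correlations of log2 values across transcripts of 0.888 and 0.88 with B1 and B2, which correlated at 0.978 with each other. Library C2 correlated at 0.927 and 0.905 with C1 and C3, which correlated at 0.96 with each other. The mitochondrial ribosomal RNA share was 57.1% in C2, beside 29.8% in C1 and 20.5% in C3. Pairs of layer A libraries correlated at 0.894 to 0.913. No pair of libraries of a layer agreed within sampling noise.

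Against layer B, 7 of the 10 genes were higher in layer A and none lower, where 10.7% of all transcripts tested were higher in layer A, and 12.8% of genes by their highest transcript. Against layer C, 6 of 10 were higher in layer A, against 6.98% and 8.87%. The median log2 fold change of the 10 was 3.79 and 2.67 in these comparisons, beside -0.12 and -0.01 over all transcripts tested. Every layer A library was above every layer B library for 8 of the 10 (17.2% of all tested) and above every layer C library for 9 of the 10 (17% of all tested). The comparisons share the layer A libraries. Because the 10 genes were chosen with earlier results of these data known, their counts beside these shares are descriptions. All 4 ligand genes, 2 of the 4 ID genes and 1 of the 2 inhibitory SMAD genes made up the 7, and the 6 lacked the SMAD gene.

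All 4 ligand genes were higher in layer A than in either other layer, by log2 fold changes of 3.70 to 5.63 against layer B and 2.88 to 5.03 against layer C. Bmp6 had the largest log2 fold change of the 4 in both comparisons and Bmp7 the highest level per transcript length. Fewer cells that make a transcript and less RNA per cell cannot be told apart in bulk tissue. Bmp7, a ligand that pairs with itself or with other BMPs, lies on chromosome 2 (GRCm38 chr2:172868012-172940321, minus strand). Its normalized CPM were 15.5, 6.35 and 17.0 in A1 to A3, 0.741, 0.67 and 1.12 in B1 to B3 and 2.36, 1.59 and 1.78 in C1 to C3. All 3 layer A libraries stood above the other 6, and all 3 of layer C above all 3 of layer B. The log2 fold change was 3.93 (SE 0.462, adjusted p = 0.0002) against layer B and 2.75 (SE 0.437, adjusted p = 0.0025) against layer C.

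Bmp6, which in the liver sets hepcidin and so iron balance, lies at chr13:38345107-38500302 (plus strand). In layer A it reached 6.44, 5.95 and 6.93 normalized CPM, the tightest layer A spread of the 4 ligand genes. It gave 0.157, 0.208 and 0.0208 in layer B and 0.0736, 0.0638 and 0.341 in layer C, and libraries B3 and C2 rested on 1 count each. The layer A libraries did not overlap the others, and the log2 fold change was 5.63 (SE 0.71, adjusted p = 0.00024) against layer B and 5.03 (SE 0.682, adjusted p = 0.00157) against layer C. Layers B and C overlapped each other. Without C3 the second log2 fold change was 6.47.

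Bmp5, a ligand closely related to Bmp6 and Bmp7, lies at chr9:75775364-75900310 (plus strand). Its normalized CPM were 2.20, 3.01 and 4.46 in A1 to A3, 0.0898, 0.0693 and 0.146 in B1 to B3 and 0.245, 0.128 and 0.213 in C1 to C3. No layer A library overlapped another layer, and layers B and C overlapped each other. The log2 fold changes were 4.95 (SE 0.587, adjusted p = 0.0002) and 3.97 (SE 0.554, adjusted p = 0.00168).

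Bmp4, the ligand of the Bmp2 and Bmp4 pair that patterns the dorsal nervous system, lies at chr14:46383520-46390669 (minus strand). It gave 2.29, 1.54 and 5.39 normalized CPM in A1 to A3, 0.135, 0.0693 and 0.50 in B1 to B3 and 0.687, 0.128 and 0.383 in C1 to C3. Library A3 was the highest of the 9 and no layer A library overlapped another layer. Bmp4 had log2 fold changes of 3.70 (SE 0.761, adjusted p = 0.00406) against layer B and 2.88 (SE 0.73, adjusted p = 0.0201) against layer C. The first was 3.01 without A3 and 4.94 without B3. The second call was lost when A3, C1, C2 or C3 was left out, with adjusted p = 0.115, 0.0571, 0.0693 and 0.0645. A second Bmp4 transcript held 96.5% of the count of the one used, so an isoform cannot be assigned.

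**Figure D1:**
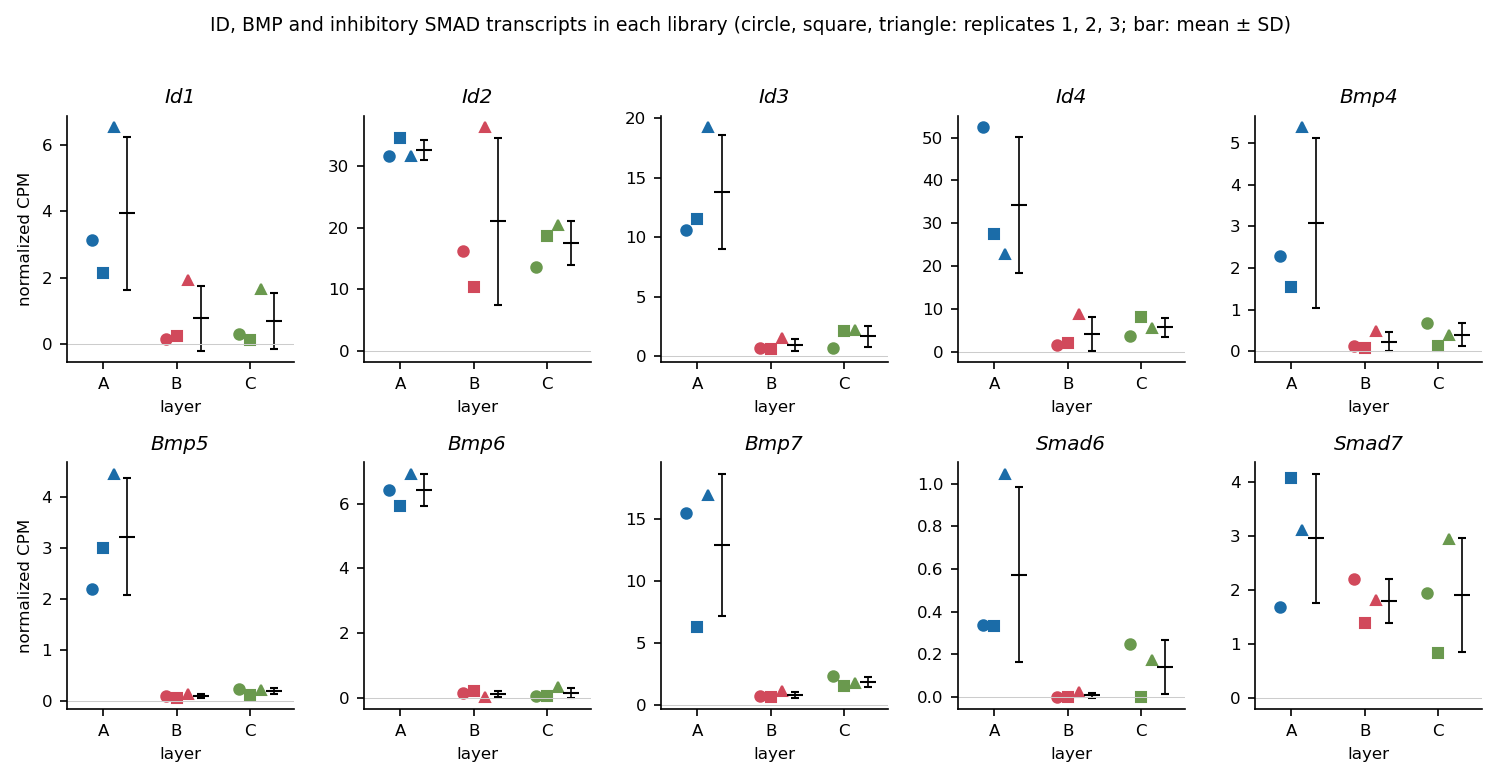
Normalized CPM (linear axis from 0, its own scale for each gene) of the 10 genes in each of the 9 libraries by layer, with bars for the mean ± SD (n = 3). The layer A points of Bmp4 to Bmp7, Id1, Id3, Id4 and Smad6 lie above those of the other layers, while Id2 and Smad7 overlap between layers A and B.

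Among the ID genes, Id3 and Id4 were higher in layer A than in both other layers, and Id1 and Id2 did not pass the test in either comparison. Id3, an ID factor of vessel and immune cells as well as of astrocytes, lies at chr4:136143497-136145392 (plus strand). Its normalized CPM were 10.6, 11.5 and 19.3 in A1 to A3, 0.674, 0.577 and 1.54 in B1 to B3 and 0.663, 2.10 and 2.15 in C1 to C3. Every layer A library was at least 10.6 and no library of the other layers exceeded 2.15. The log2 fold changes were 3.89 (SE 0.541, adjusted p = 0.000345) and 3.08 (SE 0.522, adjusted p = 0.0032), and the first was 4.51 without B3.

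Id4, an ID factor of neural stem cells and astrocytes, lies at chr13:48261228-48266026 (plus strand). In layer A it gave 52.5, 27.4 and 22.9 normalized CPM, highest in A1. Layer B gave 1.59, 2.06 and 8.72, the highest of them in B3, and layer C gave 3.58, 8.04 and 5.58. No layer A library overlapped another layer. Id4 had log2 fold changes of 3.05 (SE 0.587, adjusted p = 0.00273) against layer B and 2.59 (SE 0.578, adjusted p = 0.0112) against layer C. Without B3 the first was 4.28. The call against layer C was lost without A1 (adjusted p = 0.0599) or without C1 (adjusted p = 0.0789).

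Id1, the ID factor most used as a readout of BMP signalling, lies at chr2:152736251-152737410 (plus strand). Its normalized CPM were 3.13, 2.14 and 6.53 in A1 to A3, 0.157, 0.254 and 1.92 in B1 to B3 and 0.319, 0.128 and 1.66 in C1 to C3. The third library was the highest in each layer, and the layer A libraries did not overlap the others. The log2 fold change of 2.35 (SE 0.89) against layer B gave an adjusted p of 0.0868, and that of 2.36 (SE 0.887) against layer C gave 0.104. Without library B3 both passed, at 4.31 (adjusted p = 0.00266) and 2.32 (adjusted p = 0.0207), and without C3 the second did (4.03, adjusted p = 0.0305). With each library left out in turn, Id1 passed in 1 of 9 fits against layer B and 2 of 9 against layer C. A second Id1 transcript held 99.5% of the count of the one used.

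Id2, the ID factor that neurons keep expressing in the adult brain, lies at chr12:25093801-25096092 (minus strand). It gave 31.6, 34.4 and 31.5 normalized CPM in A1 to A3, 16.2, 10.4 and 36.3 in B1 to B3 and 13.5, 18.6 and 20.4 in C1 to C3. Layer A and layer B overlapped through B3, the highest of the 9 libraries, whereas every layer A library was above every layer C library. The log2 fold changes were 0.63 (SE 0.388, adjusted p = 0.31) and 0.89 (SE 0.39, adjusted p = 0.168). Without B3 they were 1.34 (adjusted p = 0.00747) and 0.90 (adjusted p = 0.0339), both past the threshold.

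Of the inhibitory SMAD genes, Smad6 was higher in A than in B, and Smad7 did not pass the test. Smad6, which competes with Smad4 for activated SMADs, lies at chr9:63953076-64022059 (minus strand). It was counted 4, 5 and 42 times in A1 to A3, 0, 0 and 1 times in B1 to B3 and 10, 0 and 20 times in C1 to C3. The 51 counts of layer A against 1 of layer B gave a ratio of normalized levels of 104, with a 95% counting interval of 17.8 to 4171, which covers counting error only. Its adjusted p was 0.00458 against layer B and 0.197 against layer C, where the log2 fold change was 1.93 (SE 0.894). Smad7, which sends receptors for degradation, lies at chr18:75367529-75395935 (plus strand). Its normalized CPM were 1.69, 4.07 and 3.12 in A1 to A3, 2.20, 1.39 and 1.81 in B1 to B3 and 1.94, 0.829 and 2.95 in C1 to C3. The layers overlapped, and the log2 fold changes were 0.73 (SE 0.494, adjusted p = 0.365) and 0.61 (SE 0.492, adjusted p = 0.509).

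**Figure D2:**
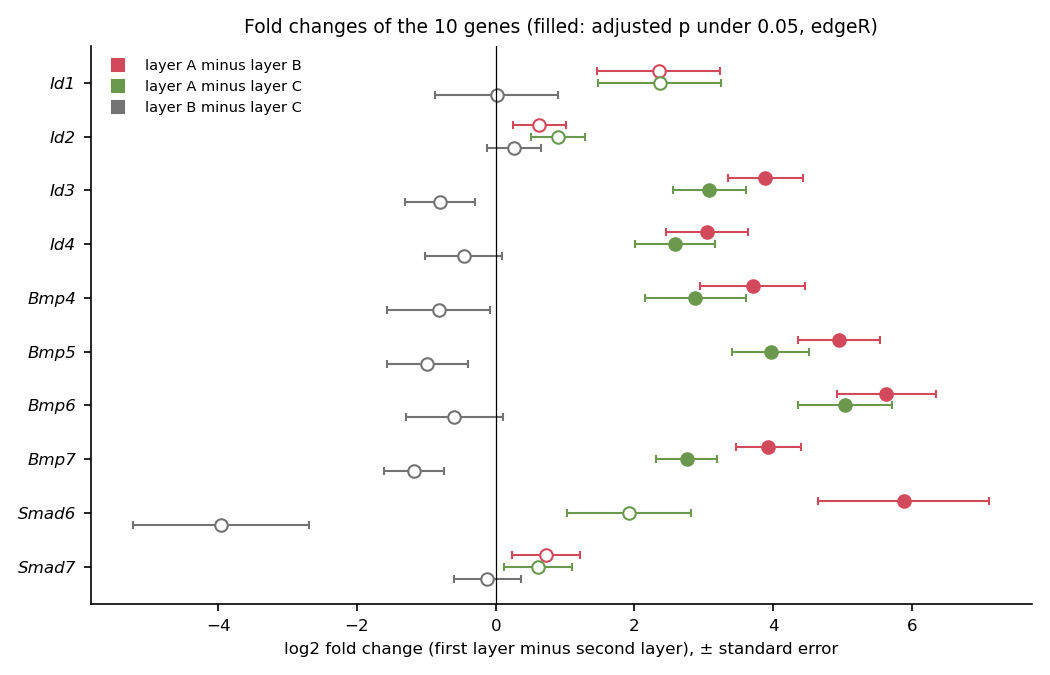
Log2 fold change with its standard error for each of the 10 genes for A minus B, A minus C and B minus C, filled where the adjusted p was under 0.05. The 4 BMP ligand genes, Id3 and Id4 are filled for both comparisons with layer A, which share its libraries, Smad6, whose fitted values against layer B rest on 1 count there, is filled for A minus B, and nothing is filled for B minus C.

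Between layers B and C none of the 10 passed the test, nor did any transcript of the whole table (0%), and 2 of 10 had an unadjusted p under 0.05 (4.11% of all tested). These were Bmp7 and Smad6. Bmp7 differed by -1.18 on the log2 scale (SE 0.43, unadjusted p = 0.0149, adjusted p = 0.942), lower in layer B, and it was the 1 gene of the 10 with every layer C library above every layer B library (4.67% of all tested). For Smad6, 1 count in layer B against 30 in layer C gave a ratio of 0.0426 (95% counting interval 0.00105 to 0.257, adjusted p = 0.783). When the 3 layers were tested jointly, 7 of the 10 passed (14.3% of all tested), and Id1, Id2 and Smad7 did not.

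Levels per kilobase of transcript adjust for the lengths of different genes. By this measure Id2 was the most abundant of the 10 in every layer, at 25.6, 16.5 and 13.8 normalized CPM per kb in layers A, B and C. Its libraries did not overlap those of the next gene in any layer. In layer A, Id3 (10.8) and Id4 (8.90) followed without differing beyond their spread, then Bmp7 (3.53), Id1 (3.39), Bmp6 (1.79), Bmp4 (1.49), Bmp5 (0.843) and Smad7 (0.692), each overlapping its neighbour. Smad6 (0.193) was lowest and did not overlap Smad7. In layer B, Id4 (1.07), Id3 (0.728), Id1 (0.668) and Smad7 (0.421) overlapped in turn, and Smad7 stood clear of Bmp7 (0.230). Layer C placed Id4 (1.49), Id3 (1.28) and Id1 (0.606) next, and every neighbouring pair below Id2 overlapped there. These levels take 1 transcript per gene, and how reads on several transcripts were counted is not given. A second transcript held 99.5% of the count of the first for Id1, 96.5% for Bmp4, 36.3% for Smad7 and 24.8% for Id3. Id2 and Id4 had 1 transcript each, so the order and the ID shares may depend on this.

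Id2 held the largest share of the ID transcripts in every library. It made up 52.9% ± 6.39 (SD, n = 3) of the summed per-length level of the 4 ID genes in layer A, beside 88.1% ± 3.79 and 81.0% ± 4.43 in layers B and C. Id3 held 22.0% ± 6.53, 4.06% ± 0.645 and 7.10% ± 2.55. Id4 held 18.3% ± 8.29, 5.13% ± 1.93 and 8.62% ± 2.34. The Id2 share did not overlap between layer A and the others, reaching at most 60.1% in layer A and at least 77.8% elsewhere. Within libraries, the log2 ratio of Id3 to Id2 counts in layer A was 3.15 above that of layer B and 2.29 above that of layer C, and that of Id4 was 2.56 and 1.65 above. The ratio of Id1 to Id2 was 2.23 and 2.20 above, the last with an exact permutation p of 0.2. The first was 1.60 without B1 and 2.82 without B3, and the last 1.31 without C2 and 3.09 without C3. Each of the others gave an exact two-sided permutation p of 0.1, the smallest that 3 against 3 libraries allow, so the 6 such comparisons (Benjamini-Hochberg 0.12 for these) could not reach 0.05. The summed ID level was 48.7 ± 3.29, 19.0 ± 12.9 and 17.2 ± 4.26 normalized CPM per kb in layers A, B and C, and the summed ligand level 7.65 ± 2.71, 0.406 ± 0.162 and 0.809 ± 0.256.

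**Figure D3:**
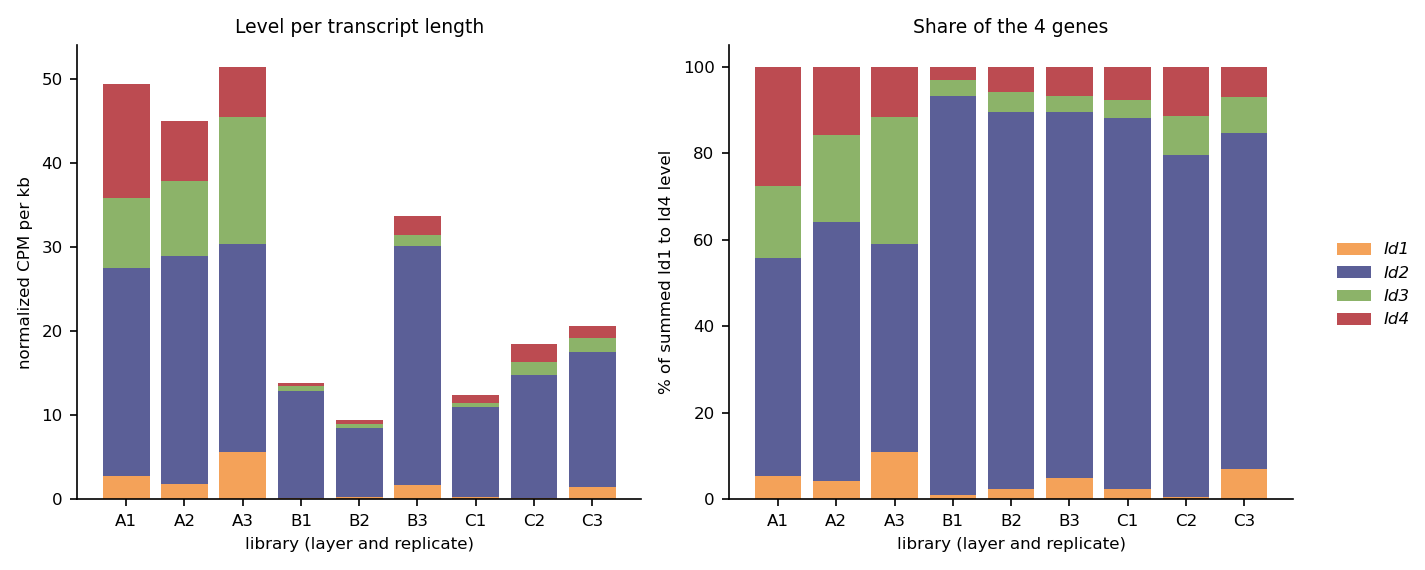
Level of each ID gene in normalized CPM per kb (left) and its share in percent of their sum (right), stacked for each of the 9 libraries. Id2 takes 48.2% to 60.1% in layer A and 77.8% to 92.2% in the other layers.

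Promoters are shown for Id4 and Smad6, the genes with a layer A difference whose window holds a palindrome tied to SMAD binding and at most 10 bases of an annotated exon. The windows run from 250 bases before to 10 bases after the RefSeq start (GRCm38.p6), with the motif in capitals. The motifs searched on both strands were GGCGCC, GTCTAGAC and GTCTG, whose reverse complement is CAGAC.
Id4, chr13:48260866-48261125, plus strand: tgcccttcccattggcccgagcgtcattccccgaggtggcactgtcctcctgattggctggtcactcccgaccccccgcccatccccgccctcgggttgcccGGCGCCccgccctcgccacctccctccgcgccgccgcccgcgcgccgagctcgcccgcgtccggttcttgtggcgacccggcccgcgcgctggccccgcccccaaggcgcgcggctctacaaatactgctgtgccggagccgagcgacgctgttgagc
Smad6, chr9:64022050-64022309, minus strand: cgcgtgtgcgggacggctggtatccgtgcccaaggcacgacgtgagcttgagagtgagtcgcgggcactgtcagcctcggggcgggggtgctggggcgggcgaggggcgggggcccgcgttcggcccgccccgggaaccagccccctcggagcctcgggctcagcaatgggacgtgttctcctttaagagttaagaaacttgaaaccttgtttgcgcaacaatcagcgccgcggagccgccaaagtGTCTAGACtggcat
GGCGCC lay in Id4 and in Id2, and in 9.96% of the 32851 promoters of that length. GTCTAGAC lay in Smad6 alone of the 7 genes with a promoter in the table, and in 0.177% of all promoters. GTCTG lay in Id3, Bmp5 and Bmp6, and in 44.0% of all promoters. A match is a description of the sequence only.

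The rest of the pathway moved in both directions. Of 53 other genes listed, 46 were tested. Of these, 15 were higher and 4 lower in A than in B, and 11 higher and 4 lower in A than in C. Over all transcripts, 10.7% and 6.98% were higher and 5.83% and 4.35% lower. Of genes by their highest transcript, 12.8% and 8.87% were higher. The median log2 fold change of the 46 was 0.43 in both, beside -0.12 and -0.01 over all transcripts. None of the 46 passed between layers B and C (0%). Msx2, counted among the higher genes, met the filter through its layer A libraries alone.

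Among 11 receptors and co-receptors, 5 were higher and 1 lower in A than in B. Bmpr1b, a type I receptor, gave 41.6, 43.4 and 21.6 normalized CPM in A1 to A3, 3.14, 2.56 and 3.52 in B1 to B3 and 6.48, 7.59 and 6.87 in C1 to C3, with no overlap between any layers. Its log2 fold changes were 3.53 (SE 0.36, adjusted p = 0.000118) and 2.35 (SE 0.34, adjusted p = 0.00185). Bmpr1a, the other main type I receptor for Bmp4, gave means of 93.3 ± 38.6, 21.0 ± 7.86 and 27.0 ± 6.38 in layers A, B and C (normalized CPM, SD, n = 3), with log2 fold changes of 2.15 (adjusted p = 0.00142) and 1.79 (adjusted p = 0.0079). Acvrl1 and its co-receptor Eng, both of blood vessel cells, had log2 fold changes of 3.35 and 2.95 against layer B and 2.09 and 1.73 against layer C, all passing. Rgma passed against layer B alone (1.56, adjusted p = 0.0117; 0.94, adjusted p = 0.135 against layer C), and the difference between these was not tested. Acvr2a, a type II receptor, was lower in layer A (-1.36 and -1.25). The type II receptor Bmpr2 gave 0.11 and -0.22, and did not pass.

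Among the 4 signal-transducing SMAD genes, Smad5 was higher in layer A in both comparisons (1.56 and 1.10) and Smad9 against layer B (1.42, adjusted p = 0.0346), with 0.98 against layer C (adjusted p = 0.17). Smad1 gave -0.03 and 0.19, and did not pass. Of 13 secreted antagonists and modulators, Htra1, a protease (2.62 and 2.38), and Nbl1 (1.56 and 1.45) were higher in layer A in both comparisons, and Fstl1 (1.26) and Bmper (1.85) against layer B. Against layer C, Fstl1 gave 0.91 (adjusted p = 0.143) and Bmper 1.67 (adjusted p = 0.0893). Chrdl1, an antagonist that binds BMP ligands, was higher in A than in C (1.96, adjusted p = 0.00681), and gave 0.30 against layer B (adjusted p = 0.65). Twsg1, the most abundant per length of those that passed in neither comparison, gave 0.40 and 0.07. Of 6 intracellular and membrane inhibitors, Skil, a repressor of SMAD transcription, was lower in layer A (-1.26 and -1.09). The other 5 did not pass, among them Ski (0.55 and 0.28). Of 3 E-protein genes, Tcf12 alone was higher against layer B (1.67, adjusted p = 0.00873), with 1.08 against layer C (adjusted p = 0.0873), where none passed. Tcf4, the most abundant of the 3 per length, gave 0.30 and 0.57.

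Of the 6 other ligands tested, Gdf10 (2.53 and 2.95) and Gdf11 (1.67 and 1.35) were higher in layer A in both comparisons. Bmp2, the most abundant per length of those that did not pass, gave 1.12 (adjusted p = 0.237) and 0.38 (adjusted p = 0.766). Bmp3, a ligand that opposes BMP signalling, gave 6.44, 3.27 and 6.88 normalized CPM in A1 to A3, 15.8, 14.5 and 14.7 in B1 to B3 and 21.0, 23.1 and 15.8 in C1 to C3, and was lower in layer A with no overlap (log2 fold changes -1.43, adjusted p = 0.00925, and -1.84, adjusted p = 0.00487). Msx2, a homeobox target of BMP signalling, was counted 17, 11 and 63 times in layer A and at most 1 time per library elsewhere. Its 91 counts against 2 in layer B gave a ratio of 92.4 (95% counting interval 24.9 to 775), and against 2 in layer C one of 118 (31.8 to 991). Hey1, the most abundant per length of the target genes that did not pass, gave 0.20 and -0.11.

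**Figure D4:**
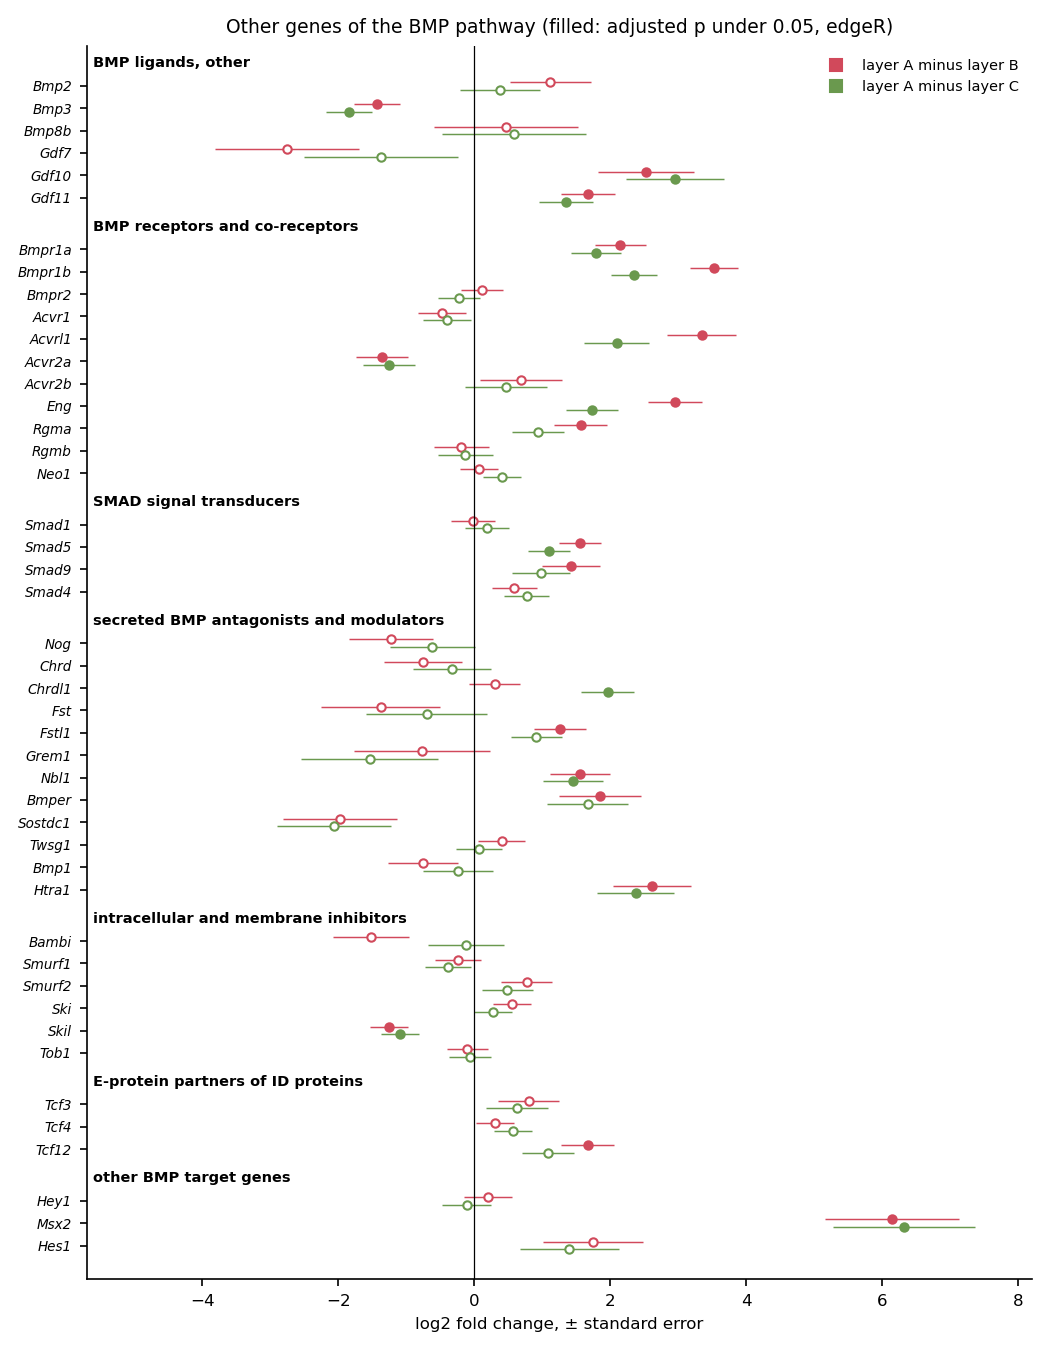
Log2 fold change with its standard error for tested genes of the BMP pathway list, all but 1 of them, in layer A against layer B and against layer C, filled where the adjusted p was under 0.05. Bmpr1b, Bmpr1a, Acvrl1, Eng and Msx2 lie to the right in both comparisons, and Bmp3, Acvr2a and Skil to the left. The fitted values of Msx2 rest on 2 counts in each of layers B and C.

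Markers of several cell types moved with these genes. The summed level of the 12 astrocyte markers was 5121 to 10768 normalized CPM in A1 to A3, 737 to 1231 in B1 to B3 and 1271 to 1752 in C1 to C3, and 12 of 12 were higher in layer A in both comparisons. The 10 meningeal markers summed to 184 to 617, 5.03 to 18.0 and 6.51 to 38.5, with 10 of 10 higher in layer A in both. Endothelial markers summed to 112 to 138, 7.82 to 21.0 and 16.3 to 26.3 (7 and 6 of 8 higher), and pericyte and smooth muscle markers to 212 to 372, 16.1 to 55.6 and 44.7 to 65.6 (6 of 6 in both). The 5 pan-neuronal markers summed to 727 to 1229, 2064 to 5435 and 2360 to 3207, with 5 of 5 lower in A than in B and 4 of 5 lower in A than in C. Glutamatergic markers summed to 2303 to 4227, 1069 to 1215 and 1060 to 1630, a sum carried by Camk2a, at a mean of 2976 in layer A beside 812 and 1122 in layers B and C. Camk2a was the 1 of these 6 markers higher in layer A in each comparison, while 2 were lower in A than in B and 3 lower in A than in C. Microglia markers summed to 107 to 140, 17.2 to 46.5 and 38.8 to 54.9, with 5 of 6 higher in layer A in both comparisons. GABAergic markers summed to 187 to 344, 52.6 to 280 and 168 to 270. Of these 6, Gad2 alone passed against layer B, higher in A, and Sst alone against layer C, lower in A. Oligodendrocyte markers summed to 158 to 260, 42.0 to 211 and 126 to 470 (1 and 0 of 6 higher). Oligodendrocyte precursor markers summed to 67.6 to 99.2, 12.4 to 27.6 and 28.1 to 42.8 (4 and 1 of 4 higher). No marker was at 0 in any layer. Library B3 was the highest of its layer for 9 of the 10 lists, all but the glutamatergic one, with astrocyte sums of 737, 754 and 1231, neuron sums of 2631, 2064 and 5435 and GABAergic sums of 57.1, 52.6 and 280.3 in B1 to B3. The part of these cell types in the layer differences of the 10 genes was not tested.

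**Figure D5:**
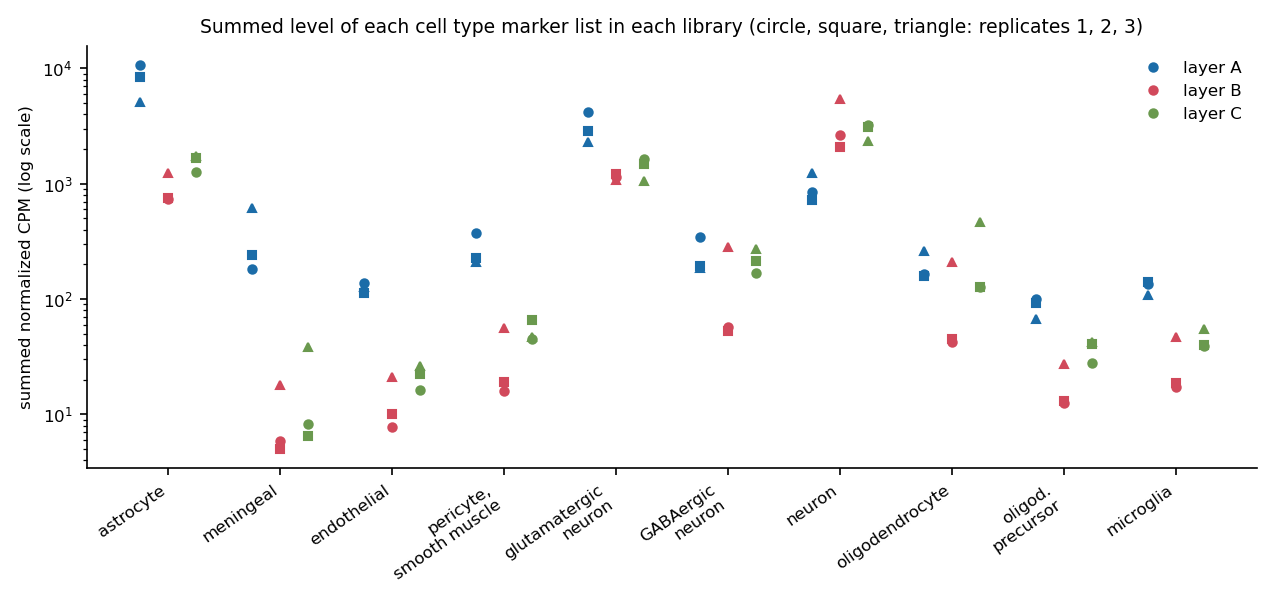
Summed normalized CPM (log axis) of each cell type marker list in the 9 libraries. Astrocyte, meningeal, endothelial, pericyte, microglia and oligodendrocyte precursor sums are higher in all 3 layer A libraries than in the other 6. Glutamatergic sums, carried by Camk2a, are too, and the pan-neuronal sums are lower.

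The genes whose pattern over the 9 libraries was most like that of each of the 10 were found by the root-mean-square difference of centred log2 normalized CPM among 11734 genes. For Id4 they were Tlr3 (0.152), Iqck (0.168) and Wwtr1 (0.188), and for Id2 Sypl (0.153), Ivns1abp (0.174) and Gt(ROSA)26Sor (0.191). For Id3 they were Slco1a4 (0.345), Cp (0.348) and Dab2 (0.360), of which Slco1a4 is on the endothelial list. For Bmp4 the nearest was Pecam1 (0.471), also on that list, for Bmp5 Slc13a3 (0.331), for Bmp7 Ecm2 (0.308), for Id1 Anxa2 (0.473), for Smad6 Lsr (0.383) and for Smad7 Selenow (0.255). Bmp6 had no gene closer than Ogn (0.773), a meningeal marker, followed by Gfap (0.779), an astrocyte marker. Among the 10 themselves, Bmp4 and Bmp7 were closest (0.605) and Id2 and Bmp6 farthest apart (2.32). The measure grows with counting noise and with the size of the layer differences. Bmp6 had 1 count in each of B3 and C2, and the part of low counts in its distances was not tested.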

How the data were processed

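RNA of 9 laser-captured samples was amplified (Ovation), made into libraries that do not keep strand and sequenced as 50-base pairs. The authors used Bowtie to align reads to the mm10 genome, and deposited unnormalized counts for each Ensembl transcript. The submitters' processing notes also name HTSeq 0.5.3, and how reads on several transcripts were counted is not given in the sources used here. Transcripts reaching 10 counts in 3 or more samples (56416 of 95533) entered the test. Library sizes were scaled by TMM, and the test was that of edgeR 4.0.16, run in R 4.3.3 (quasi-likelihood F-test, all 9 samples in the fit, layer as the only term), with Benjamini-Hochberg adjustment over all of them and a threshold of 0.05. Symbols came from the GENCODE annotation of GRCm38, which held 82807 (86.7%) of the identifiers. Likeness used genes with a mean of at least 1 CPM and a prior count of 2. Named genes were the 10 members, every pathway gene past the threshold, the most abundant per length in a pathway group that did not pass, and the genes most like each member. The members and lists were chosen with earlier results of these data known. Alternatives included DESeq2 1.42.0, other filters and scalings, a replicate block and leaving out each library. The method was tested on simulated data. Total counts were 23104306 to 76471683 per sample, and 6929782 (A1) to 60245059 (C3) without mitochondrial transcripts. Libraries of a layer differed beyond sampling noise, while the intervals cover counting error only. The values of 1 pathway gene are not reported here, though it is included in the counts.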

Additional observations from a re-analysis of the deposited data

How the results depend on the processing

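Of 516 log2 fold changes of the 10 genes under alternative settings, 487 kept their direction and side of the threshold, 12 came to pass it, 6 no longer passed and 11 changed sign, all of the last between layers B and C where no gene passed. Against layer B, 6 to 9 of the 10 genes passed when 1 library was left out, and against layer C 4 to 8, and 5 to 9 in any layer, while 9.92% to 20.4%, 2.45% to 17.5% and 7.25% to 20.3% of all transcripts passed. Smad6 could not be tested without A3, C1 or C3. With at least 10 counts asked in all 9 samples, 3 passed in each of these 3 tests, since fewer genes could then be tested (20.7%, 15.4% and 17.8% of all transcripts). For the pathway list the counts ran from 11 to 21 and from 4 to 17, lowest without A1 (11) and without C1 (4), and were 7 without A1 and 9 without A2 or C2 against layer C. The share over all transcripts fell with them, from 16.5% to 9.92% against layer B without A1, and from 11.3% against layer C to 2.45% without C1, 4.85% without A1, 5.78% without A2 and 6.72% without C2. DESeq2 called 1 pathway gene between layers B and C, Chrdl1 (log2 fold change 1.65, adjusted p = 0.0304), where edgeR called none (0.169% and 0% of all transcripts), and the cause was not tested. Between layers B and C, Id1 gave -0.0138 with no filter, -0.0479 summed over transcripts, -0.12 on the highest transcripts and -0.0269 without mitochondrial transcripts, and -1.99 to 1.65 with 1 library left out. The same ranges were -0.44 to 0.56 for Id2, -1.15 to 0.79 for Bmp6 and -0.45 to 0.32 for Smad7. Id1 passed under DESeq2 (adjusted p = 0.0362 against layer B and 0.0361 against layer C) and with no filter (0.0336 and 0.0453), and with the replicate block (log2 fold changes 2.94 and 2.95, adjusted p = 0.0029 and 0.0064). Of 17 alternatives, however, Id1 passed in only 4 against layer B and 6 against layer C. Its log2 fold changes went down to 1.77 and 1.79, and its adjusted p up to 0.276 and 0.329.

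Deviations of libraries with the same number correlated at -0.186 to 0.243 (mean 0.0353). Those with different numbers correlated at -0.369 to 0.394 (mean -0.0139). So few correlations cannot tell whether equal numbers share an animal or a batch. With the replicate block, 8 of the 10 genes passed against layer B, 7 against layer C and 0 between layers B and C, and 20, 14 and 0 of the pathway list, beside 16.3%, 11.3% and 0% of all transcripts. Low counts limit Smad6 most, since 3 counts are worth up to 0.254 normalized CPM.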
